A study of Mus musculus with 2 samples.

Results

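The stressed spots described here were the array spots outside the scar that carried the largest share of 6 cardiomyocyte stress transcripts, in sections of neonatal mouse hearts after infarction. In each section, spots with at least 500 unique molecular identifiers (UMIs, 1 per captured RNA molecule) were kept. The 20% of them with the largest UMI share of 8 scar genes (Col1a1, Col1a2, Col3a1, Postn, Fn1, Cthrc1, Tnc and Lox) was left out. The 80 stressed spots were then chosen by the UMI share of Nppb, Myh7, Ankrd1, Xirp2, Acta1 and Clu together, as those with the largest. This gave 160 stressed spots among the 1662 spots of both sections with at least 500 UMIs, and the other 569 retained spots of the first section and 601 of the second served for comparison.

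Visium libraries, which capture RNA on spots that each cover several cells, were made from 1 transverse section of a PD1 Het heart (PD1 +/-) and 1 of a PD1 KO heart (PD1 -/-). Both were C57BL/6 mice operated on postnatal day 2 by tying off the left anterior descending coronary artery, and their hearts were taken 7 days later. PD1 is an inhibitory receptor of activated T cells, and a Het carries 1 working copy of its gene. With 1 section per genotype and no section without infarction or wild-type section analysed here, spots are not replicates. No test was made, and every interval below covers counting error only. The sections also differed in sex: the stressed spots held 64 Xist UMIs in PD1 Het and 0 in PD1 KO, and 0 and 270 UMIs of 4 Y-linked genes, so genotype, sex, animal and section cannot be told apart.

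After infarction, surviving muscle next to the scar is stretched and returns to part of its fetal programme. Nppa and Nppb encode the natriuretic peptides ANP and BNP, which lower blood pressure and blood volume, and Myh7 and Acta1 encode the fetal myosin heavy chain and skeletal actin. Ankrd1 and Xirp2 encode stretch-responsive proteins of the sarcomere and the cell junction, and Clu encodes clusterin, a secreted chaperone.

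The choice rested on few molecules per spot. A stressed spot held 12 to 93 UMIs of the 6 genes in PD1 Het (median 28) and 29 to 245 in PD1 KO (median 78). The other retained spots had a median of 10 and 28. The share of the 6 genes was 0.138% to 0.494% of a spot's UMIs in PD1 Het (median 0.183%), against a median of 0.0608% in the other spots. In PD1 KO it was 0.218% to 0.795% (median 0.279%), against 0.0981%. The cut fell in a continuous range: the last spot inside and the first outside stood at 0.137814% and 0.13768% in PD1 Het, and at 0.217697% and 0.217674% in PD1 KO. The cut is therefore a rank within each section, and it lay higher in PD1 KO.

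Depth was close between stressed and other spots of a section and differed between sections. Stressed spots had a median of 15314.5 UMIs in PD1 Het, against 15791 in the other spots, and 27594.5 in PD1 KO, against 28253. In all, 1236012 and 2241868 UMIs were summed over the stressed spots, so a gene with no UMI could be present at up to 2.43 and 1.34 CPM (counts per 1000000 UMIs), the limit that a count of 0 allows. Visium barcodes mark array positions and recur between capture areas; 225 occurred in both files, 3 of them as stressed spots in both.

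The label was checked against cardiac markers. The 14 adult ventricular sarcomere genes, among them Myh6, Myl2 and Ttn, summed to a spot median of 94050 CPM in the stressed spots of PD1 Het and 90429 CPM in the others. In PD1 KO the medians were 91488 and 91970 CPM, and the lowest stressed spot had 58032 CPM in PD1 Het and 72617 CPM in PD1 KO. The stressed spots were thus rich in ventricular muscle transcripts. The atrial transcripts Sln and Bmp10 had 0 UMIs in the stressed spots of both sections, and Myl7 had 1 and 7. In the other retained spots Bmp10 also had 0, Sln 0 and 2, and Myl7 6 and 10, too few to check the label. Dkk3, also listed as an atrial marker, had 30 and 69 UMIs in the stressed spots, and Stard10 had 7 and 7. These went in opposite directions (below). Whether the spots lay at the border of the scar could not be read from positions, which were not used here, and the name rests on the rule alone.

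Promoters of 3 genes that chose the spots are shown first: Ankrd1 and Acta1, which together gave most of the stress UMIs, and Nppb, the neighbour of Nppa, with that of Nppa, which the rule did not use. Each runs from 250 bases before to 50 bases after the gene's start, on the gene's strand, from RefSeq (GRCm38.p6). Capitals mark CATTCC or its reverse complement GGAATG, the core of the M-CAT element bound by TEAD factors, which muscle stress genes often carry.
Ankrd1, chr19:36119795-36120094, minus strand: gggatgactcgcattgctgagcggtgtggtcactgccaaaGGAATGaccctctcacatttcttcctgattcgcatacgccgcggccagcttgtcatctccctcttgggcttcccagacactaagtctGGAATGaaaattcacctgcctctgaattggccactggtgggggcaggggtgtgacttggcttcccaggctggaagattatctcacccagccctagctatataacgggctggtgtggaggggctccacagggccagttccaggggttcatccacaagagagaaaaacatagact
Acta1, chr8:123894726-123895025, minus strand: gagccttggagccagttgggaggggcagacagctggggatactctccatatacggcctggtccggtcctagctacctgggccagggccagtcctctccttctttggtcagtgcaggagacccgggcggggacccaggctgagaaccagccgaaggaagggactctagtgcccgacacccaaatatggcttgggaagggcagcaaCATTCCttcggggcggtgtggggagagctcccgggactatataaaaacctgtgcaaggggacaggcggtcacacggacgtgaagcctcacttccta
Nppb, chr4:147985650-147985949, plus strand: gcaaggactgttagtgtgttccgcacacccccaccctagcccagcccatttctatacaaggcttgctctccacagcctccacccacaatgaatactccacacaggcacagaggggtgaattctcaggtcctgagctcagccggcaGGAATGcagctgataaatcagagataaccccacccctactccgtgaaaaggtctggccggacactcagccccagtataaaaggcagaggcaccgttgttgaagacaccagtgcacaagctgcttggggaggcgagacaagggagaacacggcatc
Nppa, chr4:148000472-148000771, plus strand: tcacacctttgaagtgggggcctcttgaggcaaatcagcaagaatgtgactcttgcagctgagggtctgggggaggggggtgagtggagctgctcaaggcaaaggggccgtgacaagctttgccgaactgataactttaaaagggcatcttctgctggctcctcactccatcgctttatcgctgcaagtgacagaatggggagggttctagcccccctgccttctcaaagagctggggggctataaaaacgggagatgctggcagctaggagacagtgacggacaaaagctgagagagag
Nppa and Nppb are neighbours on chromosome 4. The 6 letters, on either strand, were found 2 times in the Ankrd1 window, 1 time each in those of Acta1 and Nppb, and not in that of Nppa. Of the 6 rule genes, all but Clu had an entry, and 4 of the 5 a match, Myh7 in 1 of its 2 windows. Of the 9 other genes with the largest ratios in both sections (below), 8 had an entry and 3 a match: Fibin, Mybpc2 and Pdlim3. Of all 32851 promoter windows of this length, 14.7% held the letters. A match is a run of letters and not a measured binding site.

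The 6 genes contributed unequally. Ankrd1 gave 54.3% of the stress UMIs of the stressed spots in PD1 Het and 46.6% in PD1 KO, and was the most abundant of the 6 in 75 and 63 of the 80 spots. Acta1 followed with 15.9% and 23.0%, then Clu with 12.8% and 13.3%, Nppb with 10.3% and 7.34%, Xirp2 with 3.87% and 3.83%, and Myh7 with 2.88% and 5.98%. A spot with much Ankrd1 could be chosen for it alone, yet 59 of the 80 stressed spots of each section were chosen again without Ankrd1. The 80 retained spots richest in Ankrd1 held 60 of the stressed spots in PD1 Het and 61 in PD1 KO. Ankrd1 was present in every stressed spot, at 371 to 2736 CPM in PD1 Het (median 982) and 579 to 2339 CPM in PD1 KO (median 1564). The other spots had medians of 320 and 532 CPM and reached 1073 and 1600 CPM, so the sets overlapped even in this gene.

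The other 5 genes were patchier. Acta1 ranged from 0 to 1630 CPM over the stressed spots of PD1 Het (median 206, others 49.4) and from 0 to 4994 CPM in PD1 KO (median 421, others 108). It was absent from 6 and 3 stressed spots. Clu ranged from 0 to 787 CPM (median 239, others 77.5) and from 0 to 3167 CPM (median 319, others 118). Clusterin was thus found in nearly every stressed spot, with 5 and 1 at 0. Nppb ranged from 0 to 510 CPM (median 191, others 54.7) and from 0 to 925 CPM (median 194, others 75.9). Nppb was the 1 rule gene with nearly the same median in both genotypes. Myh7 reached 416 CPM in PD1 Het, where 38 of 80 stressed spots had no UMI of it, and 1798 CPM in PD1 KO, where 7 had none. Xirp2 had no UMI in 34 and 4 stressed spots, with medians of 57.2 and 106 CPM and maxima of 417 and 393 CPM.

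**Figure D1:**
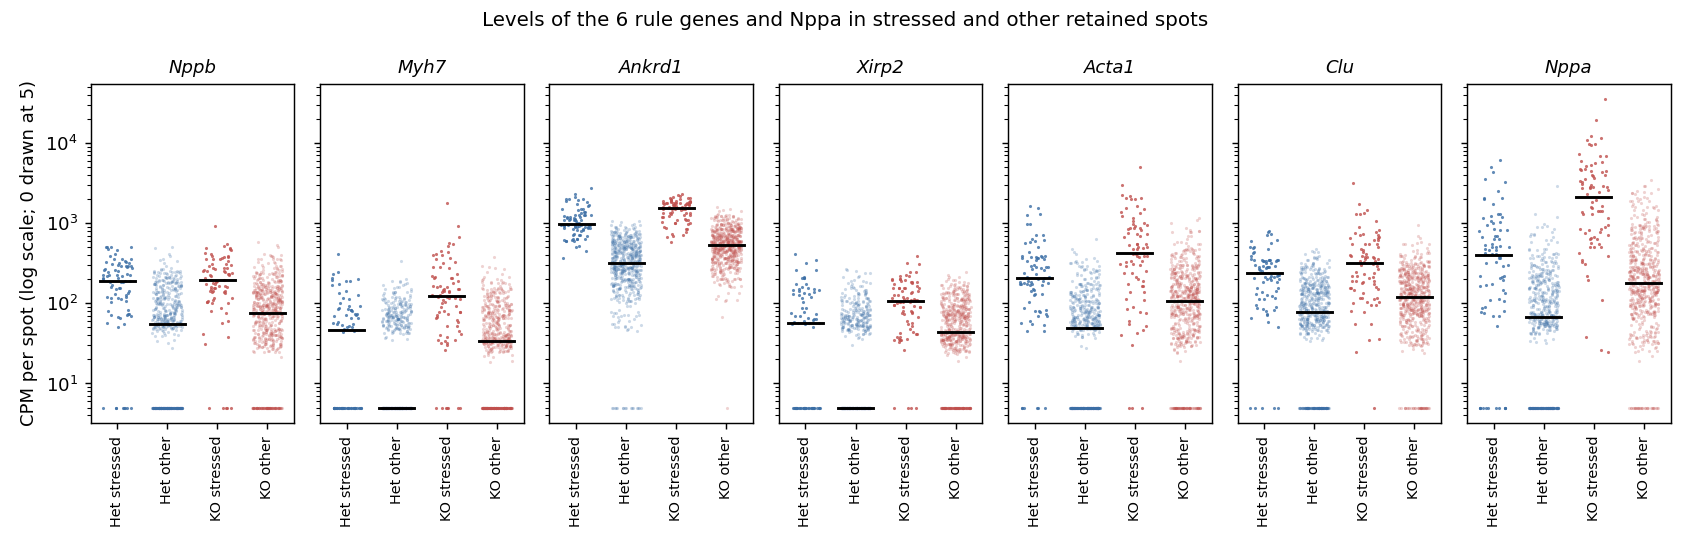
Level of the 6 rule genes and Nppa in each spot (CPM on a log axis, spots at 0 drawn at 5), for the stressed and the other retained spots of PD1 Het (blue) and PD1 KO (red); black bars are medians. Every gene overlaps between stressed and other spots, and Nppa, which the rule did not use, spreads furthest, up to 35340 CPM in 1 PD1 KO spot.

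To see each gene without its own part in the choice, spots were chosen again with the other 5 genes and the left-out gene was read. All ratios below are log2 CPM ratios of summed stressed over summed other retained spots, relative to the median gene, whose own ratio was 0.11 in PD1 Het and 0.07 in PD1 KO. Acta1 stayed 1.86 higher in PD1 Het (95% counting interval 1.67 to 2.05) and 1.495 higher in PD1 KO (1.40 to 1.59). Ankrd1 was 1.20 (1.1 to 1.29) and 0.98 (0.92 to 1.04) higher, and Nppb 1.17 (0.94 to 1.39) and 1.12 (0.97 to 1.26). The 3 genes thus stayed 1.97-fold to 3.63-fold higher when the others chose the spots. Clu was 1.04 (0.84 to 1.23) and 1.28 (1.16 to 1.39) higher, and Xirp2 0.87 (0.52 to 1.21) and 0.996 (0.79 to 1.19). Myh7 showed the widest gap between sections, 0.74 (0.34 to 1.13) in PD1 Het and 1.82 (1.64 to 2.00) in PD1 KO.

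The spots richest in one gene were often not those richest in another. Of the 80 retained spots richest in Nppb, 16 were also among the 80 richest in Clu, in each section. Nppb shared 30 and 29 of its 80 with Ankrd1, and Ankrd1 shared 33 and 32 with Clu. Myh7 shared 14 of its 80 with Clu in PD1 Het and 38 in PD1 KO. Each 80 came from 649 retained spots in PD1 Het and 681 in PD1 KO, so unrelated genes would also share some. Over those spots Spearman's coefficient was 0.10 and 0.13 for Nppb with Clu and 0.42 and 0.45 for Nppb with Ankrd1. It was 0.24 and 0.31 for Ankrd1 with Clu, and 0.02 and 0.36 for Myh7 with Clu. These overlaps describe spots of 1 section each, and Myh7 and Xirp2 are too sparse in PD1 Het to rank spots well. Nppb and Ankrd1 overlapped in both sections at about the same share, while Myh7 and Clu did so mainly in PD1 KO; the difference between sections was not tested.

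Nppa, the gene for ANP, stood furthest above the other spots of all genes compared, although the rule did not use it. It ranged from 0 to 6082 CPM over the stressed spots of PD1 Het (median 401, others 66.7) and from 24.9 to 35340 CPM in PD1 KO (median 2113, others 180). Of the stressed spots, 68 and 76 of 80 lay above the median of the others, and the sets overlapped, since other spots reached 2895 and 3482 CPM. Summed over spots, 961 UMIs (778 CPM) against 1101 (118 CPM) gave a ratio of 2.61 (2.48 to 2.74) in PD1 Het. In PD1 KO, 7555 UMIs (3370 CPM) against 5927 (340 CPM) gave 3.24 (3.19 to 3.29). Nppa was counted in the same spots that the rule chose, and it belongs to the same stress programme, so this is a description and not independent evidence.

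A few spots held much of the Nppa. In PD1 KO, 1 spot with 904 UMIs held 12.0% of the Nppa of the stressed spots, and the 5 richest spots held 29.98%; in PD1 Het the 5 richest held 36.5%. Without the richest spot of each set the ratios were 2.55 and 3.10. The 5 richest spots had 0 and 1 Myl7 UMIs and no Sln or Bmp10, while their Myl2, the ventricular light chain, stood at 17138 and 13285 CPM, against 16379 and 14081 CPM in the other retained spots. Myl4, a light chain of atrial and fetal ventricular muscle, had 2 and 8 UMIs there. Over all stressed spots it had 21 UMIs in PD1 Het and 73 in PD1 KO, at 0.27 (-0.47 to 0.95) and 1.05 (0.65 to 1.43). Myl7, with 1 and 7 UMIs against 6 and 10 in the other spots, was at 0.22 (-5.30 to 3.27) and 2.38 (0.75 to 3.92). Both atrial light chains were thus relatively more frequent in the stressed spots of PD1 KO, on few molecules. Among the listed atrial markers, Dkk3 was at 0.58 (-0.04 to 1.16) in PD1 Het and 0.58 (0.18 to 0.95) in PD1 KO. Stard10 was at -0.92 (-2.28 to 0.18) and -1.32 (-2.67 to -0.24). The sum of that list was at 0.15 (-0.38 to 0.65) and 0.34 (-0.01 to 0.68), and both intervals reached below 0.

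Over all retained spots, the Nppa share ran most closely with that of Clu in both sections. Over the 681 of PD1 KO, Spearman's coefficient was 0.56 with Clu, 0.54 with Ankrd1, 0.45 with Myh7, 0.31 with Xirp2, 0.29 with Nppb and 0.16 with Acta1. Over the 649 of PD1 Het, at a lower depth, it was 0.30 with Clu, 0.27 with Ankrd1, 0.22 with Acta1, 0.17 with Nppb, 0.16 with Xirp2 and 0.15 with Myh7. Within the 80 stressed spots, which were chosen on the sum of these genes, the values in PD1 KO were 0.78 with Clu, 0.52 with Myh7, 0.10 with Acta1 and with Xirp2, 0.09 with Ankrd1 and -0.18 with Nppb. In PD1 Het they were 0.36 with Acta1, 0.27 with Clu, 0.25 with Ankrd1, 0.16 with Myh7, 0.12 with Xirp2 and 0.11 with Nppb. With the share of the 8 scar genes the coefficient was 0.18 and 0.44 over the retained and 0.34 and 0.56 over the stressed spots of PD1 Het and PD1 KO. The points share a library and vary in depth, and the choice bears on the values within the stressed spots, so they only describe the spots. Of the 80 retained spots richest in Nppa, 42 in PD1 Het and 50 in PD1 KO were stressed spots.

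The stressed spots lay toward the matrix-rich end of the retained spots, more so in PD1 KO. Ranked by scar-gene share in 5 bins, from poorest to richest, the retained spots of PD1 Het held 10, 11, 15, 20 and 24 stressed spots, and those of PD1 KO 4, 4, 9, 19 and 44. The richest bin thus held 30% of the stressed spots in PD1 Het (Clopper-Pearson 95% interval 20.3 to 41.3) and 55.0% in PD1 KO (43.5 to 66.2). The median scar-gene share was 0.337% in the stressed and 0.293% in the other spots of PD1 Het, and 0.604% and 0.380% in PD1 KO. Matrix content therefore moves with every ratio below, and its part in them was not tested; ratios within the matrix-poor spots (below the section's median scar-gene share) and the matrix-rich spots (at or above it) are given below for some genes.

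**Figure D2:**
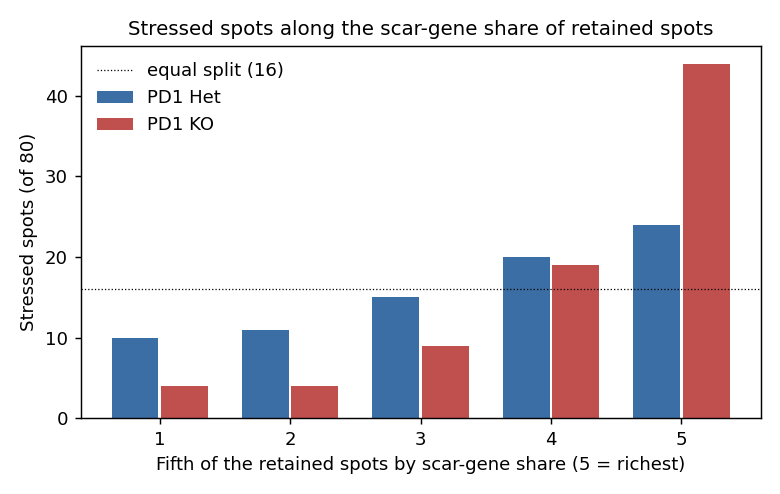
Number of stressed spots (of 80) in 5 equal bins of the retained spots ranked by scar-gene share (5 = richest), for PD1 Het (blue) and PD1 KO (red); the dotted line is an equal split. The richest bin held 24 and 44 stressed spots.

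Along the whole range of matrix content, scar included, Nppa and every rule gene but Nppb were highest in the richest bin of both sections, which the rule left out. With all spots in 5 such bins, Nppb was level in PD1 Het, at 91.5 CPM in the poorest and 77.1 CPM in the richest. In PD1 KO it stood between 101 and 119 CPM in the first 4 bins and at 167 CPM in the richest. Nppa went from 88.9 to 1117 CPM in PD1 Het and from 161 to 9256 CPM in PD1 KO. Clu, from 82.9 to 299 CPM and from 101 to 1657 CPM, and Myh7, from 32.5 to 80.2 CPM and from 38.7 to 520 CPM, came next in relative size in PD1 KO. Ankrd1 went from 409.6 to 631.6 CPM in PD1 Het and from 503.6 to 1421 CPM in PD1 KO. Acta1, from 85.5 to 176 CPM and from 181 to 537 CPM, and Xirp2, from 39.2 to 65.2 CPM and from 51.8 to 155 CPM, were also higher in the richest than in the poorest bin. Nppb in PD1 Het was therefore the 1 case of the 14 in which the richest bin was not the highest.

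**Figure D3:**
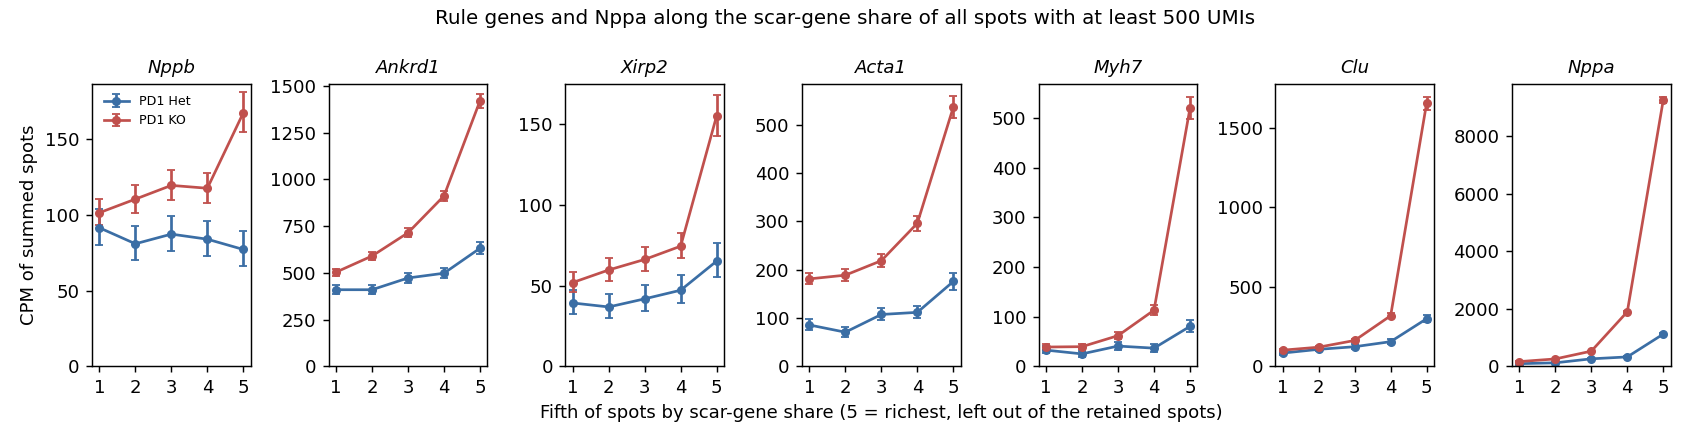
CPM of the summed spots (with 95% Poisson intervals) against the bin of all spots by scar-gene share (1 to 5), for the 6 rule genes and Nppa in PD1 Het (blue) and PD1 KO (red); each panel has its own axis from 0. All 7 genes in PD1 KO, and all but Nppb in PD1 Het, are highest in the bin richest in scar genes, which was left out (Nppa at 9256 CPM in PD1 KO), whereas Nppb in PD1 Het is level between 77.1 and 91.5 CPM.

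Nppa, which the rule did not use, was above the other spots in the stressed spots of both the matrix-poor and the matrix-rich sets. It was 1.49 higher among the matrix-poor spots (27 stressed) and 2.72 among the matrix-rich spots (53 stressed) of PD1 Het. In PD1 KO it was 1.82 higher among the poor spots (14 stressed) and 2.87 among the rich ones (66 stressed). The rule genes had to be higher as a sum in each set, since they chose the spots, and their values only describe where they were found. Ankrd1 stood at 1.41 and 1.62 in PD1 Het and at 1.37 and 1.18 in PD1 KO, and Acta1 at 1.76 and 2.53, and at 2.50 and 2.11. Clu was at 0.38 in the matrix-poor spots of PD1 KO and at 1.38 in the rich ones. The ratio of Nppb was 1.65 in the poor and 1.47 in the rich spots of PD1 Het, and 1.70 and 1.096 in PD1 KO. This split was chosen after the data were seen.

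Across all genes, few differed by much. Of 7754 genes with at least 100 UMIs in the retained spots of each section, 187 (2.41%) were at least 1.5-fold higher in the stressed spots of PD1 Het and 69 (0.89%) in those of PD1 KO. At least 1.5-fold lower were 315 (4.06%) and 88 (1.13%). In both sections at once, 17 genes (0.219%) were higher and 13 (0.168%) lower, or 28 and 6 without subtracting the median gene. The counting interval also lay past 0 for 124 (1.6%) and 69 (0.89%) of the higher genes, 127 (1.64%) and 75 (0.967%) of the lower, and in both sections for 13 (0.168%) higher and 5 (0.0645%) lower. Across genes, 4274 of the 7754 (55.1%) had the same direction in both sections, with a Spearman coefficient of 0.15. Genes near the minimum of 100 UMIs have wide counting intervals in the stressed spots, and those of PD1 Het are the shallower set.

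**Figure D4:**
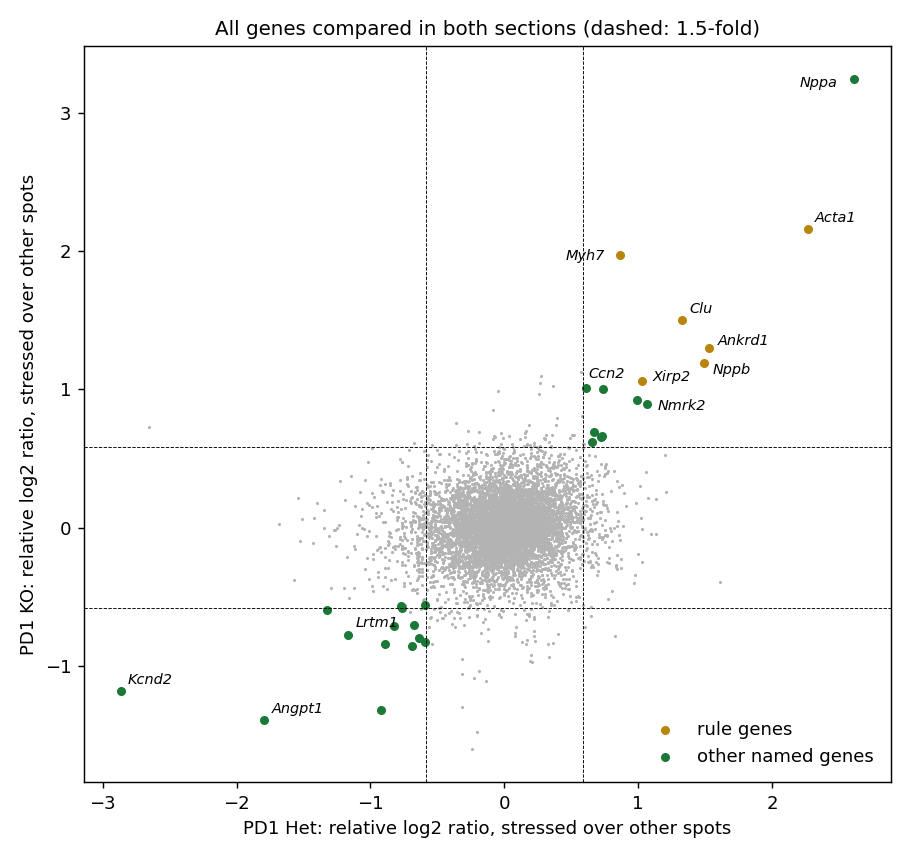
Relative log2 ratio of stressed over other retained spots for each of the 7754 genes, PD1 Het on the x axis and PD1 KO on the y axis; gold points are rule genes, green points other named genes, and dashed lines mark 1.5-fold. Nppa at 2.61 and 3.24 is furthest to the upper right; the rule genes, placed there by the choice, reach from Acta1 at 2.27 and 2.16 down to Xirp2 at 1.03 and 1.06, among genes outside the rule such as Nmrk2 at 1.07 and 0.89.

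Of the 17 genes higher in both sections, 6 were the rule genes and 11 were not. Ccn2, which encodes connective tissue growth factor, a matrix protein induced by stretch, was 0.73 higher in PD1 Het (0.30 to 1.15; 58 UMIs) and 1.01 in PD1 KO (0.80 to 1.20; 260 UMIs), and was higher in the matrix-poor and the matrix-rich spots of both sections (0.49 to 1.30). Ptgds, a prostaglandin D synthase, was 0.72 (0.47 to 0.96) and 0.65 (0.49 to 0.81) higher, again in all 4 of these sets (0.51 to 0.78). Nmrk2, a muscle kinase that makes NAD from nicotinamide riboside, was 1.07 (0.41 to 1.68; 29 UMIs) and 0.89 (0.51 to 1.26; 77 UMIs) higher. Of those 77 UMIs only 6 came from the matrix-poor spots, where its ratio was -0.37. Fibin, a secreted protein first described in fin bud outgrowth, was 0.99 and 0.92 higher, on 27 and 88 UMIs.

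The remaining ones were smaller. Pdlim3, a Z-disc protein, was 0.65 and 0.62 higher, and Col16a1, a fibril-associated collagen, 0.61 and 1.01. Both had counting intervals above 0. Within the matrix-poor and matrix-rich spots Pdlim3 was at 0.45 and 0.52 in PD1 Het and at 0.08 and 0.41 in PD1 KO, under 1.5-fold in each. Comtd1, a putative methyltransferase, at 0.67 and 0.69, and Mybpc2, the fast skeletal myosin-binding protein C, at 0.73 and 0.66, had intervals that reached below 0 in PD1 Het. The same was so of Tgfb3, a growth factor of fibrosis, at 0.60 and 0.60, and of Pde5a, a cGMP phosphodiesterase, at 0.58 and 0.60, which were named after their values were seen. Among the matrix-poor spots, Fibin and Mybpc2 in PD1 Het, Nmrk2 and Col16a1 in PD1 KO and Comtd1 in both sections had ratios below 0, on 2 to 8 UMIs each.

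Most border-zone and stretch genes outside the rule lay above the median gene, by little. Of 21 compared, 18 were above the median gene in each section, with a median of 0.20 in PD1 Het and 0.18 in PD1 KO. Past 1.5-fold there were 3 in each, 2 of them in both (Nppa and Mybpc2), where 2.41%, 0.89% and 0.219% of all genes were higher in PD1 Het, in PD1 KO and in both. Members named after their values were seen included Tnfrsf12a, the receptor of the cytokine TWEAK, at 0.58 and 0.81, Enah, an actin regulator of the intercalated disc, at 0.51 and 0.31, Sorbs2, a Z-disc adaptor, at 0.47 and 0.34, and Flnc, filamin C, at 0.38 and 0.25. Desmin (Des), at 0.25 and 0.17, was nearer to the median gene. Csrp3 (0.02 and 0.02), Cryab (0.03 and -0.02) and Xirp1 (-0.01 and -0.10), also known from stressed muscle, did not differ by 1.5-fold. Of the 8 YAP and MRTF targets compared, 7 were above the median gene in PD1 Het and 5 in PD1 KO, and Ccn2 alone passed 1.5-fold. Fetal sarcomere isoforms outside the rule were nearly level, with a sum of 0.04 (-0.05 to 0.13) in PD1 Het and 0.07 (0.01 to 0.14) in PD1 KO. Of the 6 compared, 3 and 4 were above the median gene, with medians of 0.07 and 0.08. In each section 1 of them was at least 1.5-fold higher, and none in both. Tnni1 was at -0.17 and 0.12.

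Genes that act on the natriuretic peptides did not follow Nppa and Nppb. Corin, the protease that activates pro-ANP, stood at -0.09 and -0.32, and Furin, which cleaves pro-BNP, at -0.07 and -0.02. Npr1, the receptor of ANP and BNP, was at -0.56 (-1.24 to 0.06; 23 UMIs) in PD1 Het and -0.66 (-1.16 to -0.19; 40 UMIs) in PD1 KO. Npr3, the clearance receptor, had 8 and 9 UMIs, at -0.48 and -1.18. Both receptors thus had lower ratios in both sections, on few counts. In spots of several cells, fewer cells of a type and less RNA per cell cannot be told apart.

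Adult contractile genes were nearly level. None of the 14 adult ventricular sarcomere genes passed 1.5-fold in either section, and their median was -0.06 in both. The 11 calcium handling genes compared had the same median of -0.06 in both sections, and none passed 1.5-fold. Their sum was at -0.20 (-0.23 to -0.18) in PD1 Het and -0.16 (-0.17 to -0.14) in PD1 KO. The largest part of it came from Atp2a2, the calcium pump of the sarcoplasmic reticulum, at -0.27 and -0.22, with Pln, its inhibitor, at -0.22 and -0.19, and Ryr2, the release channel, at -0.23 and -0.18. Atp2a2 and Pln stood at -0.11 to -0.25 in the matrix-poor and the matrix-rich spots of both sections. Jph2, which ties the membrane to the reticulum, was at 0.11 and -0.07, the kinase Camk2d at 0.12 and 0.06, and Casq2, which stores calcium, at -0.06 and 0.12. Among the 776 most abundant genes the median ratio was -0.01 and -0.04, so Atp2a2, Pln and Ryr2 lay below the median of abundant genes as well.

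Transcripts of mitochondrial DNA made up a smaller share of the stressed spots, though single genes rarely passed 1.5-fold. The 13 genes had a median of -0.41 in PD1 Het and -0.31 in PD1 KO, and all 13 were below the median gene in both. Of them 1 was at least 1.5-fold lower in each section and none in both, where 4.06%, 1.13% and 0.168% of all genes were. Their share was 22.7% of UMIs in the stressed and 27.5% in the other spots of PD1 Het, and 14.4% and 16.9% in PD1 KO. The rule divided by all UMIs, mitochondrial ones included, so the choice itself bears on this share. With totals free of them, 69 of the 80 stressed spots in PD1 Het and 73 in PD1 KO were chosen again. In the matrix-poor spots of PD1 KO, of which 14 were stressed, mt-Co1 was at 0.02. The 18 nuclear genes of the respiratory chain had a median of -0.05 and -0.16, and none passed 1.5-fold; in PD1 KO all 18 were below the median gene. The medians of the genes that burn fatty acids were -0.04 and -0.17, also with none past 1.5-fold, and those of glycolysis 0.05 and 0.02.

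**Figure D5:**
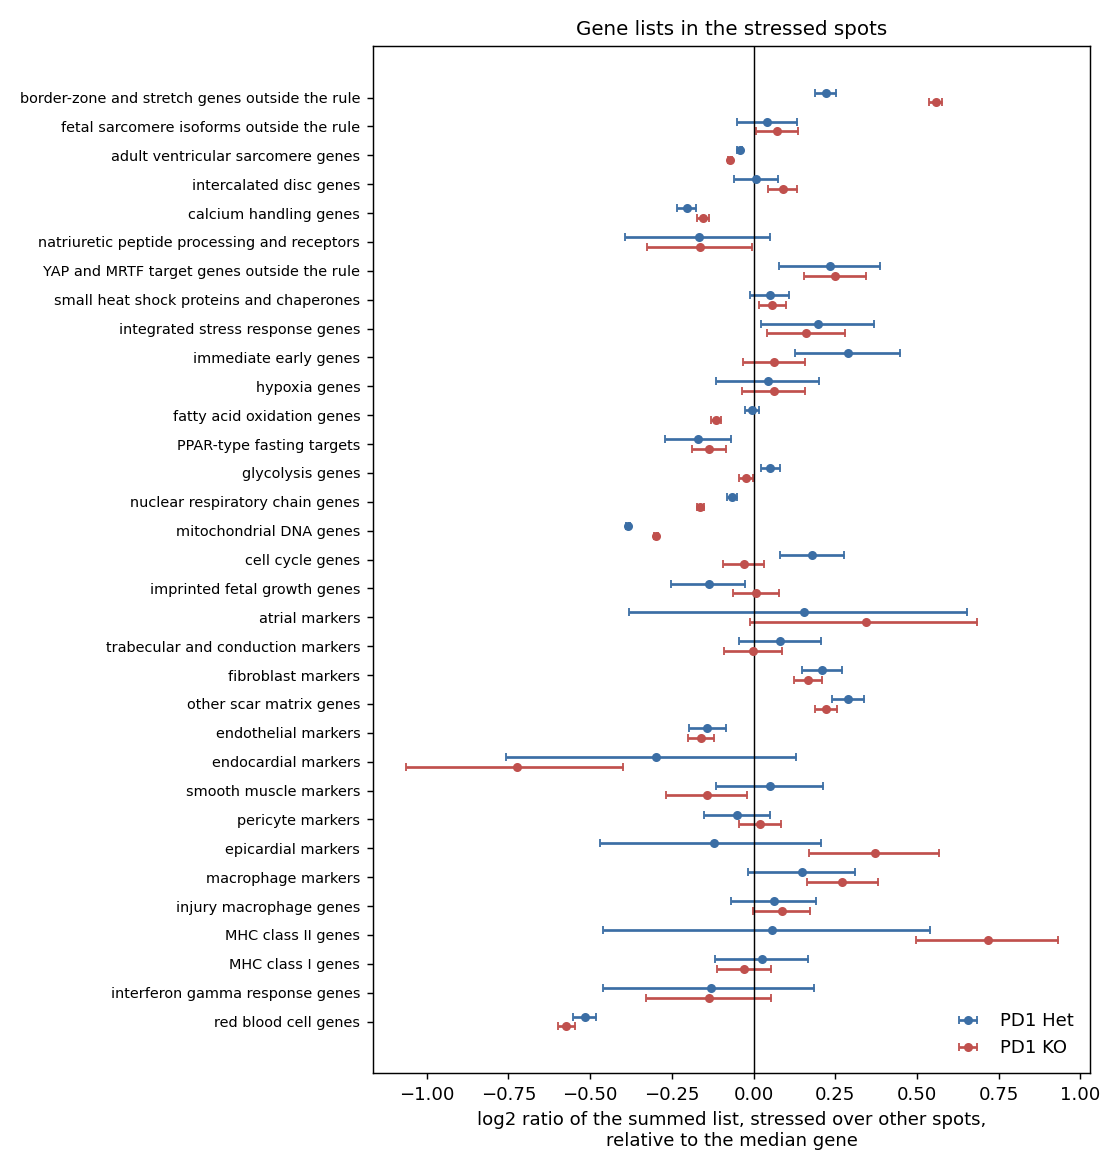
Log2 ratio of each summed gene list in stressed over other retained spots, relative to the median gene, with 95% counting intervals, for PD1 Het (blue) and PD1 KO (red). Mitochondrial DNA genes lie at -0.38 and -0.30 and red blood cell genes at -0.52 and -0.57, while the border-zone sum, at 0.22 and 0.56, contains Nppa. The choice bears on the mitochondrial sum, since the rule divided by all UMIs.

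Matrix genes that the rule did not use lay above the median gene. All 10 compared of that list did so in both sections, with medians of 0.34 and 0.27. At least 1.5-fold higher were none in PD1 Het, 2 in PD1 KO and none in both. Of all genes, 2.41%, 0.89% and 0.219% were. Biglycan (Bgn), a small proteoglycan, was 0.51 (0.36 to 0.66) and 0.49 (0.38 to 0.60) higher, and Col5a2 0.43 and 0.50. Elastin (Eln) was at 0.50 in PD1 Het and 0.07 in PD1 KO. Ltbp2, which binds elastic fibres, and Col12a1, a collagen of tissue under tension, had under 100 UMIs in the retained spots of PD1 Het and were outside the count above. Ltbp2 was 1.36 (0.58 to 2.09; 22 UMIs) and 1.77 (1.36 to 2.16; 78 UMIs) higher, and Col12a1 1.47 (0.50 to 2.36; 15 UMIs) and 1.66 (1.24 to 2.07; 72 UMIs). The rule dropped the spots richest in other matrix genes, so these lists are not free of the choice, and Col1a1 itself was 0.07 higher in PD1 Het and 0.55 in PD1 KO.

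Markers of other cell types moved with this to different degrees. Of the 10 fibroblast markers, 9 in PD1 Het and 8 in PD1 KO were above the median gene (medians 0.17 and 0.09), with Pi16, a marker of adventitial fibroblasts, at 0.68 and 0.27, and Pdgfra at 0.00 and -0.09. Of the 10 endothelial markers 1 was above the median gene in each section, with medians of -0.14 and -0.22. At least 1.5-fold lower were 1 in PD1 Het and none in PD1 KO, where 4.06% and 1.13% of all genes were. Aqp1, the water channel of capillaries and red cells, was the lowest at -0.66 (-0.90 to -0.42) and -0.47 (-0.64 to -0.31), and in PD1 KO it was at 0.04 in the matrix-poor and -0.43 in the matrix-rich spots. Red blood cell genes summed to -0.52 and -0.57, so the stressed spots held a smaller share of blood transcripts. Their spot medians were 2579 CPM in the stressed and 2996 CPM in the other spots of PD1 Het, and 3605 and 5063 CPM in PD1 KO. Single other spots reached 209669 and 151368 CPM, which weigh on the sums. Angpt1, the ligand of the endothelial receptor Tie2, was the gene of the lower group with the largest ratio common to both sections, at -1.79 (4 UMIs against 97) and -1.39 (8 against 156). Krt18, an intermediate filament listed as an epicardial marker, was 1.55 (0.67 to 2.38; 18 UMIs) and 1.70 (1.18 to 2.20; 49 UMIs) higher, and Wt1, a defining epicardial gene, was at 0.54 and 0.06. Other epicardial markers stood below the median gene: Aldh1a2, which makes retinoic acid, at -0.65 (-1.24 to -0.11) and -0.22 (-0.58 to 0.13), and Upk3b, with 1 and 7 UMIs, at -2.10 and -0.49. Msln was at -1.25 and 0.68. The 10 epicardial markers together summed to -0.12 (-0.47 to 0.21) in PD1 Het and 0.37 (0.17 to 0.57) in PD1 KO.

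Among other genes lower in both sections, 3 that are not blood genes had counting intervals below 0 in both. Kcnd2, the Kv4.2 potassium channel of the transient outward current, had 2 UMIs against 102 in PD1 Het (-2.87) and 7 against 118 in PD1 KO (-1.18). Lrtm1, a leucine-rich repeat membrane protein, had the firmest counts: 40 against 629 (-1.17, -1.67 to -0.71) and 100 against 1270 (-0.78, -1.08 to -0.48). Gadd45a, a stress-induced growth arrest gene, was at -0.82 and -0.71. Lrtm1 was at -0.93 in the matrix-poor and -1.29 in the matrix-rich spots of PD1 Het, and at -0.08 and -0.79 in PD1 KO. Stard10, Tasor2, Slc36a2, Gstk1, Dleu2, Snap29 and Utp4, at -0.59 to -1.32, rested on 6 to 24 UMIs in the stressed spots, and each had an interval that reached 0 in at least 1 section. Stard10 is also on the list of atrial markers. Zbtb7b, Eif2ak1 and Art1, at -0.60 to -0.77 in PD1 Het, missed 1.5-fold in PD1 KO, at -0.56 to -0.58.

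Immune transcripts were few. Pdcd1, which encodes PD1, and Pdcd1lg2 had 0 UMIs in the retained spots of both sections, and Cd274, which encodes the ligand PD-L1, had 1 UMI in the stressed spots of each, against 3 and 38 in the others. Neither the genotype nor the ligand could therefore be compared in these spots. The 10 T and NK cell markers had 14 UMIs in the stressed spots of each section, in 10 and 7 spots. In the other spots they had 38 UMIs in PD1 Het and 296 in PD1 KO, 157 of the latter in 1 spot. T cell transcripts were thus too rare to describe the stressed spots. Macrophage markers summed to 0.15 (-0.02 to 0.31) and 0.27 (0.16 to 0.38), and of the 6 compared 3 and 4 were above the median gene. Lyz2, with 273 of their 804 UMIs in the stressed spots of PD1 KO, was at -0.02 in PD1 Het and 0.60 in PD1 KO. C1qa was at 0.43 and -0.09, C1qb at 0.37 and 0.10, and Mrc1 at -0.27 and -0.37. MHC class II genes summed to 0.06 (-0.46 to 0.54, 40 UMIs) and 0.72 (0.50 to 0.93, 215 UMIs). Of the MHC class II genes, Cd74 was at -0.01 in PD1 Het and 0.65 in PD1 KO. In PD1 KO it was at 0.60 in the matrix-poor spots (9 stressed-spot UMIs) and 0.24 in the matrix-rich ones (75).

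Between genotypes, the stressed spots of PD1 KO over those of PD1 Het showed 785 genes (10.1%) at least 1.5-fold higher and 550 (7.09%) lower, relative to the median gene at 0.27, and for 479 (6.18%) and 389 (5.02%) of them the counting interval also lay past 0. Without subtracting the median gene the counts were 1831 and 165. Of the rule genes, Myh7 was 1.41 higher (1.04 to 1.78) and Acta1 0.89 (0.73 to 1.05). In the other retained spots the same ratios were 0.29 and 0.99, so the ratio of Acta1 was of like size in both sets of spots and that of Myh7 was not. The rule genes chose the spots, and the cut lay higher in PD1 KO, so the choice bears on these ratios. The stressed spots of PD1 KO also had the larger median scar-gene share (0.604%, against 0.337% in PD1 Het), whose part was not tested. Nppb stood at -0.13 in the stressed and 0.16 in the other spots. Nppa was 1.85 higher (1.75 to 1.94) in the stressed and 1.21 in the other spots. Ccn2 was 1.04 and 0.76 higher.

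Of the 10 genes highest and the 10 lowest in the stressed spots of PD1 KO over PD1 Het, some had a ratio of like size in the other retained spots and most a smaller one. Pdk4, the kinase that turns off pyruvate dehydrogenase in fasting, was 2.11 higher in PD1 KO in the stressed and 2.26 in the other spots, and Angptl4, a fasting-induced lipase inhibitor, 1.76 and 1.75. Of 10 PPAR-type fasting targets, 5 were at least 1.5-fold higher in the stressed spots of PD1 KO and none lower, where 10.1% of all genes were higher and 7.09% lower. Of the 13 mitochondrial DNA genes, 11 were at least 1.5-fold lower, with a median of -0.90. Of the 776 most abundant genes, 2.19% were higher and 7.99% lower, with a median of -0.16. Gstp1 (-2.13 and -1.78), Polr2l (-1.53 and -1.37) and Nrp1 (-1.47 and -1.47) were lower in both sets of spots. Igfbp3, a binding protein of insulin-like growth factors, was 1.67 higher in the stressed spots (20 against 139 UMIs) and 1.11 in the others. Ucp3, a mitochondrial uncoupling protein, was at 1.70 and 0.94, and C3, the central complement component, at 4.33 (3 against 132 UMIs) and 0.95. Echdc3, Sh2d4a, Numb and Pex13 stood at 1.68 to 2.04 in the stressed and -0.04 to 0.57 in the other spots, on 6 to 9 UMIs in the stressed spots of PD1 Het. Among the lowest, Dusp18 was at -1.50 and -0.88. Serpini1, Fam219b, Tmem100, Ube2l6, Arl4d and Znhit6 were at -1.48 to -1.71 in the stressed and -0.56 to 0.02 in the other spots, on 13 to 37 UMIs in the stressed spots of a section.

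The stressed-over-other ratio itself differed most between sections mainly in genes with few molecules. It was higher in PD1 KO for C3 (-2.65 in PD1 Het, 0.73 in PD1 KO), and for Echdc3, Sh2d4a, B3gnt3, Tmem168, Gprasp1 and Mageh1, at -0.99 to -1.68 in PD1 Het and 0.03 to 0.58 in PD1 KO, on 5 to 12 UMIs in PD1 Het. Kcnd2 was lower in both. In the other direction, Myh11, the smooth muscle myosin, was at 1.61 (44 UMIs) in PD1 Het and -0.40 (35 UMIs) in PD1 KO, or 1.25 and -0.62 without the richest spot of each set. The Notch ligand gene Jag1 was at 0.97 and -0.40, and Eea1, of early endosomes, at 0.98 and -0.34. Serpini1, Spata2, Cradd and Tmem100 were at 0.60 to 0.82 and -0.51 to -0.79, and F13a1 at -0.24 and -1.60. These genes were taken for their difference, which was not tested. Since each genotype is 1 section, none of these values has a replicate check.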

How the data were processed

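For 2 Visium sections the authors deposited raw UMI counts of each gene in each spot. Per the file headers these came from Space Ranger 1.1.0. Builds were mm10 and GRCm38, per the submitters' processing notes; how reads were aligned and spots picked is not given in the sources used here. Both feature tables hold the same 32285 genes. Counts were summed over the 80 stressed and the other retained spots of each section and scaled to CPM (counts per 1000000 UMIs). Ratios are log2 CPM ratios minus that of the median of 7754 genes with at least 100 UMIs in the retained spots of each section, called at 1.5-fold. Intervals (95%) are exact Poisson, exact conditional or Clopper-Pearson and cover counting error only. A count of 0 allows up to 3 counts. The members and the 37 gene lists were chosen with earlier results of these data known.

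Named genes are the 6 rule genes, Nppa, 15 genes at each end of the ratios common to both sections, up to 4 per list, the 10 highest and 10 lowest of PD1 KO over PD1 Het, the 8 that differ most each way between sections, and Pdcd1, Cd274 and Pdcd1lg2; others were named after their values were seen. Genes that this rule takes and the text does not name are not reported here. Ratios and counting intervals of single genes were tried on simulated Poisson counts, which lack the spread between spots. Alternatives covered scaling (edgeR 4.0.16 TMM factors, median-of-ratios), mitochondrial UMIs, count and depth minimums, the number of spots, the share of scar spots left out, Clu and the mean over spots. Python 3.11.15, numpy 2.4.6, pandas 2.3.3 and scipy 1.17.1 were used.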

Additional observations from a re-analysis of the deposited data

Results flagged for a closer look

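In the stressed spots, 2 genes passed 1.5-fold in opposite directions in the 2 sections with both counting intervals past 0. Serpini1, which encodes neuroserpin, was at 0.82 in PD1 Het (22 UMIs in the stressed spots) and -0.79 in PD1 KO (16 UMIs). C3, the central complement component, was at -2.65 in PD1 Het, on 3 UMIs against 132, and 0.73 in PD1 KO, on 132 UMIs against 591. With 1 section per genotype, the difference was not tested. Among the matrix-poor spots of PD1 KO the ratio of C3 was 2.02, and among the matrix-rich ones 0.02.

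The 20% of spots richest in scar genes, which the rule left out, carried the same stress transcripts. In PD1 KO, 96 of the 170 spots (56.5%), and in PD1 Het 57 of 162 (35.2%), had a rule-gene share at or above the lowest share of the stressed spots. The median rule-gene share of the spots left out was 0.0998% in PD1 Het and 0.262% in PD1 KO.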

How the results depend on the processing

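Scaling by TMM or median-of-ratios factors, totals without mitochondrial UMIs (recentred likewise), spots of at least 10000 UMIs, choice without Clu and the mean over spots left each count of genes within 1.5 times. The genes themselves changed more. Of the 17 higher and 13 lower in both sections, 13 and 7 were still called without mitochondrial UMIs in the totals. With at least 10000 UMIs 13 and 8 were, without Clu 12 and 7, and by the mean over spots 14 and 11. TMM factors kept 16 and 13, median-of-ratios factors 17 and 13. With 40% of spots left out as scar, 12 and 6 were still compared, and 7 and 0 were called. For genes at least 1.5-fold higher in both sections (17), lower in both (13), higher in PD1 Het (187), lower in PD1 Het (315), higher in PD1 KO (69) and lower in PD1 KO (88), in that order, the counts were 28, 6, 363, 184, 124 and 50 without subtracting the median gene. They were 202, 174, 1211, 1364, 672 and 773 with at least 10 UMIs per gene, 51, 49, 429, 656, 202 and 274 with 40 stressed spots, and 10, 8, 82, 124, 31 and 24 with 160. With 40% of spots left out as scar they were 11, 5, 106, 202, 33 and 41, and with none left out 225, 118, 493, 553, 634 and 610; of the 80 stressed spots, 41 in PD1 Het and 17 in PD1 KO were then the same. In a split added after the data were seen, the matrix-rich spots gave 9 higher and 7 lower in both, 116 higher in PD1 Het, and 28 and 33 in PD1 KO, and the matrix-poor spots 50 lower in both, and 179 and 340 in PD1 KO. For PD1 KO over PD1 Het (785 higher, 550 lower) the counts were 1831 and 165 without the median gene, 2059 and 1666 with at least 10 UMIs, 510 higher with 160 spots, 892 lower with 40 and 1016 lower with no scar spots left out. Signs turned with no scar spots left out for C3 (0.88), Cenpf (0.17), Psmb8 (0.10) and Tmem168 (0.11) in PD1 Het and Snap29 (0.0090) and Ube2l6 (0.13) in PD1 KO. They also turned with 40 spots for Dleu2 in PD1 Het (0.11), with 40% left out for Tagln in PD1 Het (-0.20) and Vwf in PD1 KO (0.13), and among the matrix-poor spots for Lyz2 in PD1 KO (-0.32). The cause was not tested. Depth limits the PD1 Het values most, since a gene at 100 UMIs has few in its stressed spots. No paired analysis was possible because each genotype has 1 section.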
